A study of Homo sapiens with 9 samples.

Results

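Arrays of cells carrying a hairpin against RBFOX2, named fox2 in the labels, were compared with arrays of cells carrying a non-silencing hairpin. The members were chosen by the hairpin named in each sample's label, which gave 6 of the 9 arrays of the series, 3 RBFOX2 hairpin arrays and 3 control arrays. The cells were Flip-In-293, a line derived from human embryonic kidney HEK293 cells that holds an integration site for a transgene. All groups, controls included, were infected with a lentivirus that makes a short hairpin RNA and were then cultured for 10 days before total RNA was isolated. The other 3 arrays came from cells given a hairpin against CPSF3, the endonuclease that cuts pre-mRNA ahead of polyadenylation, and served here as a second knockdown to set beside the first. The Affymetrix Human Exon 1.0 ST array reads most exons of a gene through separate probe sets, so that the level of a gene and the relative signal of each of its exons were measured from the same hybridisation. The number of hairpin sequences used per target and the share of cells infected were not given in the sources used here. Sample titles call the replicates biological and the series text calls them technical, so every p-value here covers array-to-array spread alone, part or all of which may be technical.

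RBFOX2 is an RNA-binding protein of the RBFOX family, which recognises the word GCAUG in introns near alternative exons. Binding downstream of an exon generally favours its inclusion, and binding upstream generally favours its skipping. RBFOX1 is its relative of neurons and muscle and RBFOX3 that of neurons, while RBFOX2 is made in many tissues and in embryonic kidney lines, where it acts on exons of cytoskeletal, adhesion and signalling genes.

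Signals were log2 values, and a gene level was the median over its probe sets with a mean signal of at least 6.97, the median of the array. The number of arrays, 3 a group, limits the precision of every value, and errors are SE of the fit for differences and SD (n = 3) for levels. Array medians lay between 6.97 and 7.0. Over the 16748 gene levels control replicate 3 was closest to RBFOX2 hairpin replicate 2 (Pearson's r = 0.979 across genes, which are not independent) and correlated with its own group at a mean r of 0.948. Its gene levels differed from the other controls by 0.219 on average and from the mean of the RBFOX2 hairpin arrays by 0.139. RBFOX2 hairpin replicate 3 was closest to replicate 3 of the arrays labelled CPSF3 hairpin (r = 0.981). Results that rest on these arrays are given with and without control replicate 3. CPSF3 itself was at 9.60, 9.27 and 9.27 on the arrays labelled CPSF3 hairpin and at 9.33, 9.29 and 9.80 on the control arrays, so that the targeted transcript does not bear out that label, and directions drawn from those arrays rest on the label alone.

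RBFOX2 was lower on every RBFOX2 hairpin array than on every control array. Its level was 9.66, 9.54 and 9.38 on the control arrays but 8.95, 8.82 and 9.05 on the RBFOX2 hairpin arrays, and 9.39, 9.34 and 9.25 on the arrays labelled CPSF3 hairpin. The RBFOX2 hairpin arrays stood below both other groups with no overlap, while the arrays labelled CPSF3 hairpin overlapped the range of the controls. The difference from control was -0.58 ± 0.12, with adjusted p = 0.0617 by limma over all genes, which missed the threshold of 0.05. An exact two-sided permutation test of the 6 arrays gave p = 0.1, the smallest that 20 divisions of 3 against 3 allow. Without control replicate 3 the difference was -0.66 (adjusted p = 0.00424 by limma), and over all arrays left out in turn it ranged from -0.66 to -0.52. With any other array left out the adjusted p by limma stayed above 0.05. Control replicate 3 had the lowest RBFOX2 level of the controls, so leaving it out enlarges the difference. It was picked out for its nearness to the RBFOX2 hairpin arrays, and passing without it is no independent support. The difference from the arrays labelled CPSF3 hairpin was -0.39 (adjusted p = 0.184, limma). In these bulk samples fewer cells that make a transcript and less of it per cell cannot be told apart.

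The RBFOX2 probe sets that could be read pointed the same way. Of 26 on the array 21 passed the filter, all 21 had a lower mean on the RBFOX2 hairpin arrays, and 15 did so with no overlap between the groups, beside 6.18% of all probe sets lower and 6.36% higher without overlap. Probe set 3959238 differed most: it read 9.21, 9.57 and 9.38 on the control arrays and 7.91, 8.13 and 8.86 on the RBFOX2 hairpin arrays, a difference of -1.09 ± 0.22. Probe set 3959225 was the most even among the controls, at 9.75 on each of them against 8.62, 8.60 and 9.05. At the other end, probe set 3959274 read 10.22, 10.30 and 10.22 against 10.41, 10.00 and 10.00, a difference of -0.11 ± 0.16 with overlapping arrays. Probe set positions within the gene were not given in the sources used here, so no difference was placed on an isoform.

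**Figure D1:**
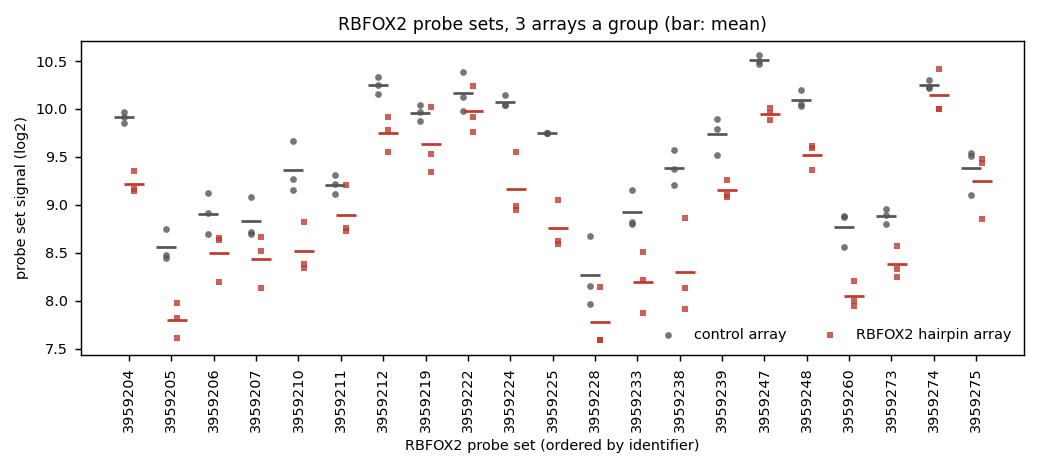
Signal (log2) of the 21 RBFOX2 probe sets that passed the filter, ordered by identifier, on 3 control arrays (grey circles) and 3 RBFOX2 hairpin arrays (red squares), with a bar at each mean. The red bar lies below the grey bar at all 21 probe sets, by 1.09 at 3959238 and by 0.11 at 3959274.

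RBFOX1, the relative that reads the same word, kept 9 of 26 probe sets, and its level was 8.24, 8.13 and 7.87 on the control arrays and 7.83, 7.89 and 8.24 on the RBFOX2 hairpin arrays. The groups overlapped fully, with a difference of -0.09 ± 0.14 (adjusted p = 0.857, limma), and its sign turned in 1 of the 17 other settings that measured it. RBFOX3 was not analysed here.

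At gene level 29 of 16748 genes differed from control by limma at an adjusted p under 0.05, which is 0.173% of genes. Lower genes numbered 24 (0.143%) and higher genes 5 (0.0299%). All 29 had array groups that did not overlap, a pattern also seen in 14.1% of all genes, 7.05% lower and 7.07% higher. The median size of the 29 differences was 0.88, from 0.61 to 1.61, whereas the median difference of all genes was 0.03. An unadjusted p under 0.05 was reached by 2284 genes (13.6%), of which 847 were lower (5.06% of all genes) and 1437 higher (8.58%). The count of 29 rested on single arrays. Leaving out control replicate 1 gave 2 genes, replicate 2 gave 9 and replicate 3 gave 1546. Leaving out RBFOX2 hairpin replicate 1 gave 7, replicate 2 gave 30 and replicate 3 gave 2. For the arrays labelled CPSF3 hairpin, which bear on this comparison through the pooled variance, the counts were 22, 11 and 11. The 1546 genes called without control replicate 3 included all 29, with 1177 higher and 369 lower. Counts of list members called without control replicate 3, given below, stand beside these 1546 of 16748 genes. CGA and NKIRAS2 kept their calls whichever of the 9 arrays was left out, and the other 27 genes lost theirs both without control replicate 1 and without RBFOX2 hairpin replicate 3. Without a filter on low signals 5 of the 29 kept their calls, and with the arrays labelled CPSF3 hairpin out of the fit 5 did. Just outside the threshold stood INTS14, a subunit of the Integrator complex (0.96 ± 0.18, adjusted p = 0.0504), and SPATA18, a mitochondrial quality control gene (-0.68 ± 0.13, adjusted p = 0.0504). NCOA5, a nuclear receptor coactivator outside the threshold, differed by 1.24 ± 0.23, more than any of the 5 genes called higher.

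**Figure D2:**
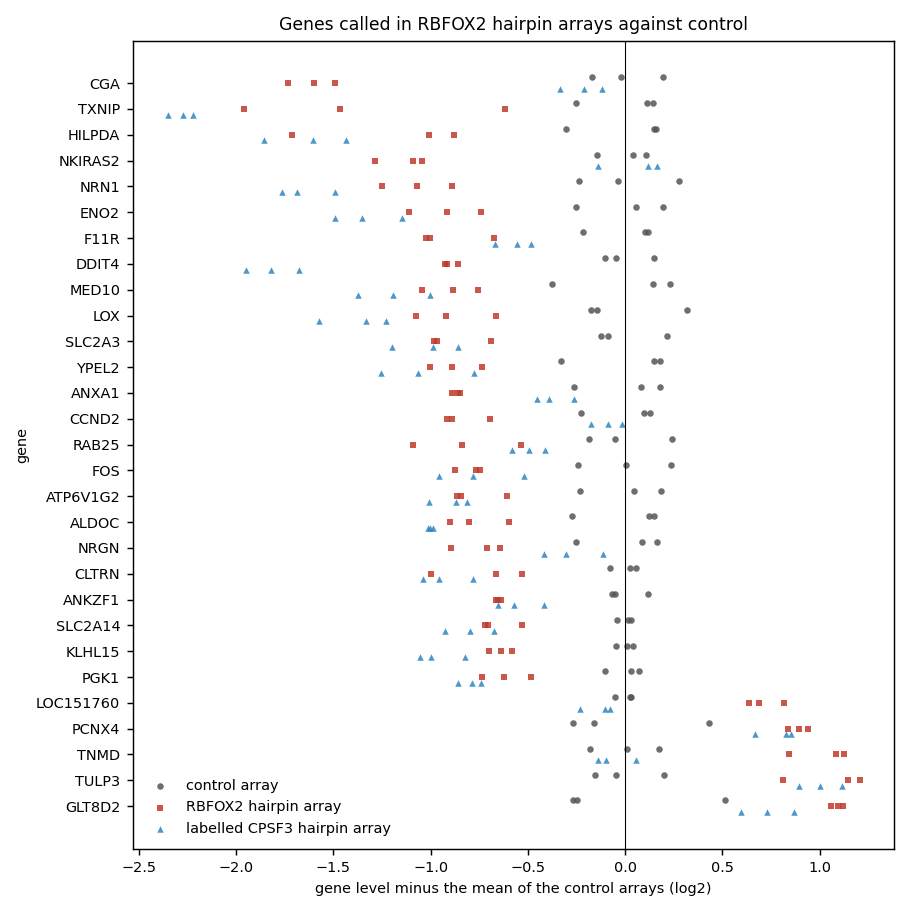
Gene level minus the mean of the 3 control arrays (log2) for the 29 genes called against control, by array, with control arrays as grey circles, RBFOX2 hairpin arrays as red squares and arrays labelled CPSF3 hairpin as blue triangles. No red square overlaps the grey circles of its gene, and for CGA, NKIRAS2, CCND2, TNMD and LOC151760 the blue triangles lie at or near the controls.

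CGA had the largest fall. It encodes the alpha subunit shared by the glycoprotein hormones and is a textbook target of cAMP signalling through a pair of response elements ahead of its start. Its level was 10.70, 10.48 and 10.33 on the control arrays but 8.90, 9.01 and 8.77 on the RBFOX2 hairpin arrays, and 10.17, 10.38 and 10.29 on the arrays labelled CPSF3 hairpin. The RBFOX2 hairpin arrays stood more than 1 log2 unit below every other array, and CGA fell by 1.61 ± 0.12 on the log2 scale, to 32.8% of the control level with a 95% interval from 27.2% to 39.5% (adjusted p = 6.93e-05, limma). All 4 of its probe sets were lower with no overlap, by 1.43 to 2.0. Probe sets 2963624 and 2963626 were also called singly among 266506 probe sets tested, of which 3 passed (0.00113%). The difference from the arrays labelled CPSF3 hairpin was -1.39 (adjusted p = 0.000442, limma). The sequence ahead of the gene is shown because it carries the words for which the gene is known. The 250 bases before the CGA start in RefSeq on GRCh38.p14 (chr6:87095107-87095356, minus strand, written 5′ to 3′ towards the start) hold the cAMP response element TGACGTCA, in capitals, 2 times, with first bases at -142 and -124. In the same window of all genes with a RefSeq entry the word was found in 2.03% of 27305 genes, and in 2 of the 19 genes called lower that had an entry.
CGA: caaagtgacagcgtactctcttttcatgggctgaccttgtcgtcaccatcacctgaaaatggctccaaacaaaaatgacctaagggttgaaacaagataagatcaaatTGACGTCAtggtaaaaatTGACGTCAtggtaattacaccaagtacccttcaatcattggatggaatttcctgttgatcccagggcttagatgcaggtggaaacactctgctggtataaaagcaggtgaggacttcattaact

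NKIRAS2 was the other gene called whichever array was left out. It encodes a Ras-like protein that binds the inhibitors of NF-kappaB and restrains their breakdown. Its level was 10.09, 9.91 and 10.16 on the control arrays but 8.97, 8.77 and 9.01 on the RBFOX2 hairpin arrays, and 10.22, 9.91 and 10.17 on the arrays labelled CPSF3 hairpin. The latter covered the range of the controls, and the RBFOX2 hairpin arrays lay about a log2 unit lower. NKIRAS2 fell by 1.14 ± 0.12 on the log2 scale, to 45.4% of the control level (adjusted p = 0.00257, limma), and it differed from the arrays labelled CPSF3 hairpin by -1.19 (adjusted p = 0.000916, limma). Of its 13 probe sets 11 were lower, 10 with no overlap. Of 30 measured NF-kappaB pathway genes NKIRAS2 alone was called, and the median difference of the list was -0.01, with a sign that turned in other settings.

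Genes of glycolysis and of the response to low oxygen made up the largest group among the lower genes. Cells short of oxygen stabilise the transcription factor HIF1A, which binds the word ACGTG ahead of genes for glucose uptake, glycolysis, lipid storage and matrix cross-linking. Of 50 measured hypoxia-responsive and glycolysis genes 7 fell and 0 rose, against 0.143% of all genes called lower. Without overlap 24 were lower and 0 higher, against 7.05% and 7.07% of all genes. This list was chosen with earlier results of these data known, so its counts are a description and no independent support. The median difference of the list was -0.29, and the arrays' medians over the list were 10.02, 9.80 and 9.78 for control and 9.25, 9.50 and 9.22 for the RBFOX2 hairpin. The number called fell to 0 when control replicate 1 was left out and to 1 without control replicate 2, and it was 17 without control replicate 3. It was 1 without RBFOX2 hairpin replicate 1, 8 without replicate 2 and 0 without replicate 3, and it was 4, 2 and 2 when each array labelled CPSF3 hairpin was left out in turn. With any 1 array of the 2 groups left out, the median of the list stayed between -0.33 and -0.20.

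HILPDA, which coats lipid droplets and slows fat breakdown, had the largest fall of the 7. It was at 10.53, 10.54 and 10.08 on the control arrays and at 8.67, 9.50 and 9.37 on the RBFOX2 hairpin arrays, a difference of -1.20 ± 0.20 (adjusted p = 0.0398, limma). DDIT4, an inhibitor of mTORC1 that stress and low oxygen induce, was at 10.10, 9.90 and 9.85 against 9.04, 9.09 and 9.03. It fell by 0.90 ± 0.12 on the log2 scale (adjusted p = 0.00714, limma), and all 7 of its probe sets were lower with no overlap. DDIT4 was lower still on the arrays labelled CPSF3 hairpin, at 8.0, 8.28 and 8.13, so that the RBFOX2 hairpin arrays stood 0.92 above those (adjusted p = 0.00257, limma).

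SLC2A3 encodes the glucose transporter GLUT3, and its level was 10.21, 10.24 and 10.55 on the control arrays against 9.35, 9.64 and 9.37, a difference of -0.88 ± 0.14 (adjusted p = 0.0243, limma), and without a filter on low signals it was -0.37 (adjusted p = 0.49, limma). Its near-identical copy SLC2A14 was called as well, at -0.65 ± 0.11 (adjusted p = 0.0414, limma), but probe sets of the 2 genes can bind the same transcripts, so that the second call is uncertain. Among glycolytic enzymes, the enolase ENO2 was at 10.46, 10.33 and 10.02 against 9.36, 9.53 and 9.16, a difference of -0.92 ± 0.14 (adjusted p = 0.0255, limma). The aldolase ALDOC was at 8.87, 8.85 and 8.45 against 7.92, 8.12 and 7.82, a difference of -0.77 ± 0.13 (adjusted p = 0.0414, limma). Phosphoglycerate kinase PGK1 was at 12.49, 12.45 and 12.31 against 11.68, 11.93 and 11.80, a difference of -0.61 ± 0.11 (adjusted p = 0.048, limma), with all 16 probe sets lower. LOX, the enzyme that cross-links collagen and elastin, was at 11.13, 10.66 and 10.64 against 9.89, 10.15 and 9.74, a difference of -0.89 ± 0.16 (adjusted p = 0.0465, limma). In each of these genes the highest RBFOX2 hairpin array lay below the lowest control array. Control replicate 3 was the lowest of the controls in ENO2, ALDOC, PGK1 and LOX, and also in HILPDA and DDIT4. In SLC2A3 and SLC2A14 it was the highest of them.

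Members that missed the threshold were spread from values as large as these to none, as read after their values were seen. The transcription factor BHLHE40 was at 10.35, 10.28 and 9.82 against 8.59, 9.49 and 8.98 (-1.13 ± 0.21, adjusted p = 0.0567 by limma). The pyruvate dehydrogenase kinase PDK1 differed by -0.58 ± 0.12 and the collagen hydroxylase P4HA1 by -0.97 ± 0.21, with no overlap in either. LDHA, by contrast, which makes lactate, was at 12.29, 12.40 and 12.38 against 12.37, 12.30 and 12.22, and SLC2A1, the transporter GLUT1, differed by 0.07 ± 0.15. CA9, a carbonic anhydrase much used as a marker of low oxygen, differed by -0.03 ± 0.15. The highest members of the list were CA12 (0.20 ± 0.13) and EPAS1 (0.20 ± 0.13), neither of them called, and 7 of the 50 had a higher mean. The arrays labelled CPSF3 hairpin, set against the same controls, had a list median of -0.26, and their own array medians over the list were 9.13, 9.10 and 9.10, below all RBFOX2 hairpin arrays. Of the 7 genes called, a difference between the arrays with the 2 hairpins passed the test for DDIT4 only.

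**Figure D3:**
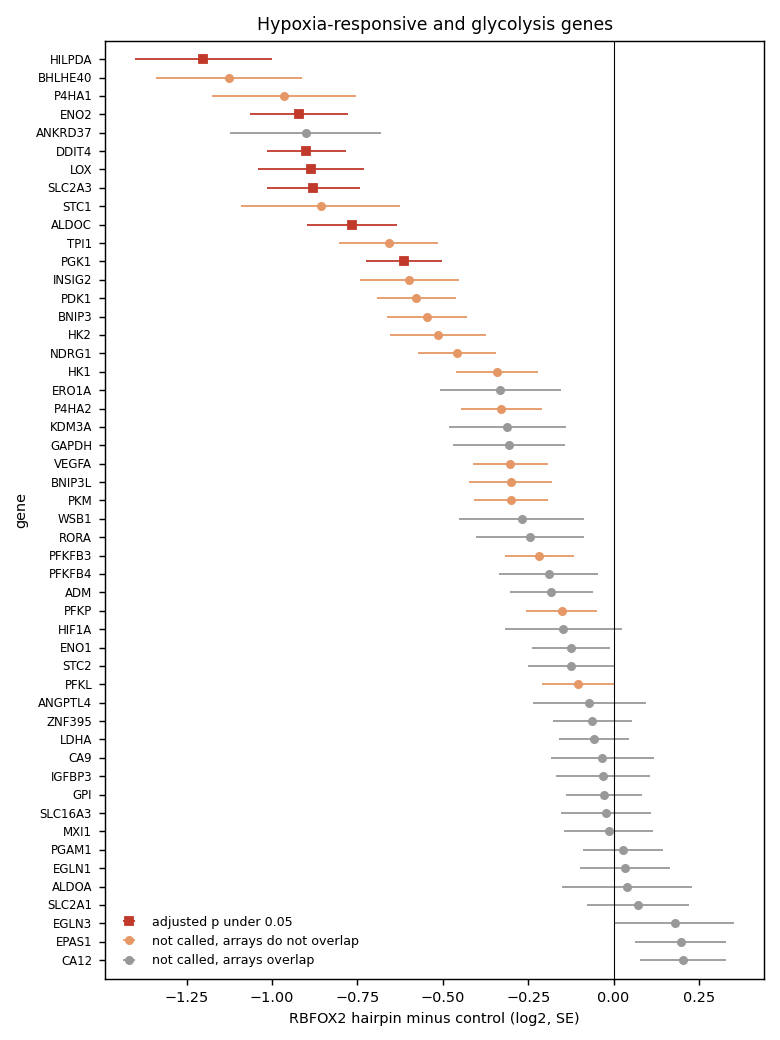
Difference between RBFOX2 hairpin and control arrays (log2, with SE) for 50 hypoxia-responsive and glycolysis genes, ordered from the largest fall (top) to the largest rise (bottom). The 7 called genes are red squares, 17 further genes with no overlap between the arrays are orange circles, and the 26 others are grey, among them LDHA, CA9 and SLC2A1 near 0.

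Promoters of 4 of the called genes of this list are shown, picked because they hold the word that HIF1A binds. They do not stand for the other called genes. RefSeq windows on GRCh38.p14 of 250 bases before the start were found for 43 of the 50 genes. The word ACGTG, searched on both strands (where CACGT is its reverse complement and CACGTG holds both), lay in 26 of them (60.5%), against 21.7% of 27305 genes with an entry. The list was made of genes known to respond to low oxygen and of glycolysis genes. This comparison with all genes therefore describes the choice of list and not these arrays. Within the list the word lay in 14 of the 18 genes with an entry that were lower without overlap, and in 12 of the 25 others. Some genes had several windows. By window the word lay in 52.9% of 34 for the former, 38.9% of 36 for the latter and 18.5% of all 35116. The split follows the differences described above, and a link between the word and the falls was not tested. These are matches of letters and do not mark a bound site. The HIF1A transcript itself differed by -0.15 ± 0.17 with overlapping arrays, and its protein was not measured. The windows are PGK1 (chrX:78103998-78104247, plus strand, matches from -202 and -183), ENO2 (chr12:6914330-6914579, plus strand, -118), ALDOC (chr17:28576896-28577145, minus strand, -240, -239 and -28) and DDIT4 (chr10:72273674-72273923, plus strand, -125), each 5′ to 3′ towards the start with the matches in capitals.
PGK1: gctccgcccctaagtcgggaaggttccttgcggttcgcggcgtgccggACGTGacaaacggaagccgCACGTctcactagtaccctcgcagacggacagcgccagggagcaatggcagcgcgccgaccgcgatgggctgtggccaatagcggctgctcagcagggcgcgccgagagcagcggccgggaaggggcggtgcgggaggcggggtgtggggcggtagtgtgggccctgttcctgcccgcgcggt
ENO2: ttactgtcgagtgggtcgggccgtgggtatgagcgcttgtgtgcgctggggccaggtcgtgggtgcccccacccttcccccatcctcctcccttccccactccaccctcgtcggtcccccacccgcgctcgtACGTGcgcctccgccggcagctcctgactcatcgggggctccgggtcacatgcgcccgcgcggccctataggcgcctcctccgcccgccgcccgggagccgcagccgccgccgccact
ALDOC: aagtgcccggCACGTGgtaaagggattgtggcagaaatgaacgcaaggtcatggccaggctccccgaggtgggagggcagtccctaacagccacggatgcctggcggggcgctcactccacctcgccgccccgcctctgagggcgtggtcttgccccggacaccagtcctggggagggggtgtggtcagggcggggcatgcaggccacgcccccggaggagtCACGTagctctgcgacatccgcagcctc
DDIT4: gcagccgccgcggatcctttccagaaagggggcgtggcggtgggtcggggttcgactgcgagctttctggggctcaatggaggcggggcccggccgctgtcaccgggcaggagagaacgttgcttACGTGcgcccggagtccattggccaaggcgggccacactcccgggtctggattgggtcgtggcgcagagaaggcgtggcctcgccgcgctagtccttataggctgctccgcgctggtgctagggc

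Outside that group, the largest called fall after CGA was that of TXNIP. It encodes an arrestin-like protein that glucose induces and that limits glucose uptake. TXNIP was at 11.93, 11.96 and 11.56 on the control arrays, at 10.35, 11.20 and 9.85 on the RBFOX2 hairpin arrays, and at 9.46, 9.59 and 9.54 on the arrays labelled CPSF3 hairpin. The RBFOX2 hairpin arrays spread over more than 1 log2 unit (SD 0.68, against 0.22 among controls), and the difference was -1.35 ± 0.24 (adjusted p = 0.048, limma). All 15 probe sets were lower with no overlap. The difference ranged from -1.71 to -1.04 as arrays were left out in turn. Its paralogue ARRDC4, which glucose also induces, was at 11.03, 10.98 and 11.82 against 10.68, 11.37 and 10.53, with overlapping arrays (-0.42 ± 0.23, adjusted p = 0.474 by limma). Of 9 measured alpha-arrestin and MondoA genes TXNIP alone was called, and of the 9 fits with 1 array left out, those without control replicate 3 or RBFOX2 hairpin replicate 2 called it.

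F11R, the junctional adhesion molecule JAM-A, was at 10.70, 10.68 and 10.37 on the control arrays and at 9.56, 9.91 and 9.58 on the RBFOX2 hairpin arrays. It fell by 0.90 ± 0.13 on the log2 scale (adjusted p = 0.0185, limma), with 22 of 23 probe sets lower. RAB25, a small GTPase of recycling endosomes in epithelial cells, was at 9.19, 8.89 and 8.76 against 7.86, 8.41 and 8.11 (-0.82 ± 0.15, adjusted p = 0.0488 by limma). ANXA1, a calcium-dependent membrane-binding protein, was at 9.97, 9.53 and 9.87 against 8.93, 8.90 and 8.94. The RBFOX2 hairpin arrays agreed closely there (SD 0.023), and the difference was -0.87 ± 0.13 (adjusted p = 0.0185, limma). Of 37 measured junction and adhesion genes F11R alone was called, the median difference was 0.01 with a sign that turned in other settings, and E-cadherin CDH1 differed by 0.01 ± 0.16. The list had 3 called without control replicate 3 (1 lower, 2 higher), when 1546 of all 16748 genes were called. It had 0 without control replicate 1 or 2 or RBFOX2 hairpin replicate 1 or 3.

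NRN1, neuritin, a small protein that promotes neurite growth, was at 11.29, 10.97 and 10.77 against 9.94, 10.12 and 9.76, a difference of -1.07 ± 0.15 (adjusted p = 0.0111, limma). With the mean over its probe sets as the gene level, in place of the median, it was -0.39 and was not called. NRGN, neurogranin, a calmodulin-binding protein of dendrites, was at 9.58, 9.24 and 9.65 against 8.78, 8.59 and 8.85 (-0.75 ± 0.14, adjusted p = 0.048 by limma), and with a filter at the upper quartile of signal it was -0.20. Of 27 measured neuronal genes NRN1 and ENO2 were called lower, 7 were lower without overlap, and the list's median was -0.04. Over all genes 0.143% were called lower and 7.05% were lower without overlap. The list had 4 called without control replicate 3, 0 without control replicate 1 or RBFOX2 hairpin replicate 1 or 3, and 1 without control replicate 2 or replicate 2 of the arrays labelled CPSF3 hairpin. Neurofilament NEFL, which HEK293 cells also make, was at 10.71, 10.51 and 10.52 against 10.12, 10.19 and 9.97 without passing the test (adjusted p = 0.113, limma).

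CCND2, cyclin D2, which drives entry into S phase, was at 10.96, 10.64 and 10.99 on the control arrays and at 10.17, 9.98 and 9.95 on the RBFOX2 hairpin arrays. It fell by 0.83 ± 0.12 on the log2 scale (adjusted p = 0.0185, limma), while the arrays labelled CPSF3 hairpin stood at 10.85, 10.78 and 10.69, within the range of the controls. The difference between the hairpins was -0.74 (adjusted p = 0.026, limma). The immediate early transcription factor FOS was at 9.12, 8.89 and 8.64 against 8.01, 8.12 and 8.14 (-0.79 ± 0.14, adjusted p = 0.048 by limma), and with a filter at the upper quartile of signal it was -0.27. Of 30 measured immediate early and cAMP-responsive genes CGA and FOS were called, 12 were lower and 1 higher without overlap, beside 7.05% and 7.07% of all genes, and the median difference was -0.23. The count called was 11 without control replicate 3. It was 1 without control replicate 1 or 2, without any of the RBFOX2 hairpin arrays, or without replicate 2 or 3 of the arrays labelled CPSF3 hairpin. JUN, a partner of FOS, was at 11.69, 11.42 and 11.42 against 10.96, 10.92 and 10.81 without passing the test (-0.61 ± 0.12, adjusted p = 0.0588 by limma), and EGR1, another early response gene, differed by 0.10 ± 0.13.

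The remaining 6 called falls were of different gene families. MED10, a subunit of the Mediator complex that links transcription factors to RNA polymerase II, was at 9.87, 9.78 and 9.26 against 8.59, 8.75 and 8.88 (-0.90 ± 0.16, adjusted p = 0.048 by limma). It was the 1 called gene of 31 measured Mediator genes, of which 2 were called without control replicate 3, beside 1546 of all 16748 genes. Of the Mediator genes 0 were called without any 1 of the other arrays. YPEL2, of the Yippee-like zinc-binding family, was at 9.41, 9.37 and 8.90 against 8.34, 8.49 and 8.22, with all 19 probe sets lower. KLHL15, a substrate adaptor of a cullin ubiquitin ligase, was at 12.12, 12.07 and 12.16 against 11.48, 11.54 and 11.42 (-0.64 ± 0.11), with both groups tight. The proton pump subunit ATP6V1G2 differed by -0.77 ± 0.13. ANKZF1, which acts in ribosome quality control, differed by -0.65 ± 0.11, and CLTRN, collectrin, by -0.73 ± 0.13 over 3 probe sets. ANKZF1 was at -0.24 with a filter at the upper quartile of signal, and CLTRN at -0.17 without a filter.

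The 5 rises were each above every control array. TULP3, which carries receptors into the primary cilium, was at 8.76, 8.66 and 9.01 on the control arrays and at 9.62, 10.02 and 9.96 on the RBFOX2 hairpin arrays. It rose by 1.05 ± 0.14 (adjusted p = 0.00714, limma), with all 19 probe sets higher, 17 of them with no overlap, and was at 9.70, 9.81 and 9.93 on the arrays labelled CPSF3 hairpin. TNMD, tenomodulin, a membrane protein of tendon, was at 7.51, 7.32 and 7.67 against 8.34, 8.58 and 8.63. It rose by 1.02 ± 0.13 (adjusted p = 0.00714, limma), and the arrays labelled CPSF3 hairpin stood with the controls at 7.40, 7.55 and 7.36. Without a filter TNMD was at 0.68 and not called (adjusted p = 0.166, limma), and with the mean as gene level at 0.63 and called. LOC151760, an uncharacterised locus, was at 7.62, 7.71 and 7.70 against 8.50, 8.32 and 8.37 (0.71 ± 0.11, adjusted p = 0.0185 by limma). GLT8D2, a glycosyltransferase family member, was at 7.73, 7.71 and 8.49 against 9.10, 9.04 and 9.07 (1.09 ± 0.17, adjusted p = 0.0291 by limma). PCNX4, of the pecanex family, was at 8.18, 8.07 and 8.77 against 9.23, 9.18 and 9.28 (0.89 ± 0.16, adjusted p = 0.0465 by limma). In GLT8D2 and PCNX4 control replicate 3 stood apart from the other controls towards the RBFOX2 hairpin arrays, and without it the differences were 1.35 and 1.11. With a filter at the upper quartile of signal GLT8D2 was at 0.57 (adjusted p = 0.0991, limma). Of 35 measured cilium and Hedgehog genes TULP3 alone was called. Without control replicate 3, 2 of them were called, beside 1546 of all 16748 genes. The list had 0 called without control replicate 1 or RBFOX2 hairpin replicate 3.

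Whether these changes differed from those of the other hairpin was tested directly. Over all genes 67 of 16748 (0.4%) differed between the arrays with the 2 hairpins. Among the 29 genes called against control 6 did so, namely CGA, NKIRAS2 and CCND2, which were lower on the RBFOX2 hairpin arrays, and TNMD, LOC151760 and DDIT4, which were higher there. For the other 23 the difference missed the threshold, which does not show that the hairpins acted alike. Both groups share the control arrays, so the values stand only side by side: TULP3 differed from control by 1.05 with the RBFOX2 hairpin and by 1.00 on the arrays labelled CPSF3 hairpin, FOS by -0.79 and -0.75, and TXNIP by -1.35 and -2.28.

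Genes that act with RBFOX2 in splicing did not pass the test at gene level. Of 63 measured splicing regulators 0 were called by limma, 19 had an unadjusted p under 0.05, and 4 were higher and 9 lower without overlap, with a median of -0.07. Over all genes 13.6% had such a p, and 7.07% were higher and 7.05% lower without overlap. The list had 11 called without control replicate 3, when 1546 of all 16748 genes were called. The kinases CLK3 (-0.65 ± 0.15) and CLK1 (-0.79 ± 0.19), which phosphorylate SR proteins, had the smallest p among the lower ones, and HNRNPLL (0.48 ± 0.14) and TIA1 (0.48 ± 0.14), regulators of alternative exons, among the higher. CLK1 was at 9.18, 9.11 and 8.36 on the control arrays and at 7.93, 8.17 and 8.18 on the RBFOX2 hairpin arrays, so control replicate 3 was nearer to the latter than to the other controls. Of 22 measured mRNA 3' end processing factors 0 were called by limma (6 without control replicate 3) and 7 had an unadjusted p under 0.05, beside the same 13.6%. PCF11, a cleavage factor subunit, was at 7.74, 7.35 and 9.08 against 9.24, 9.09 and 9.45, again with control replicate 3 beside the RBFOX2 hairpin arrays (1.20 ± 0.30, adjusted p = 0.124 by limma). Of 15 measured nonsense-mediated decay factors 0 were called by limma, 1 had an unadjusted p under 0.05 (1 called without control replicate 3), and the median was -0.04 with a sign that turned in other settings.

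Other lists were described by the same counts, to be read beside 13.6% of all genes at an unadjusted p under 0.05, and 7.05% lower and 7.07% higher without overlap. Of 28 measured p53 target genes 0 were called by limma, 10 had an unadjusted p under 0.05 and 11 were lower without overlap, with a median of -0.09. SPATA18 was at 8.55, 8.40 and 8.59 against 7.89, 7.85 and 7.76, and GADD45A, a growth arrest gene, at 10.62, 10.40 and 9.66 against 9.09, 9.44 and 8.91 (-1.08 ± 0.21, adjusted p = 0.0567 by limma). Of 32 ATF4 and unfolded protein response genes DDIT4 was called, 8 were lower without overlap, and the median was -0.12. Of 42 extracellular matrix genes LOX was called lower and TNMD higher, with 9 lower and 3 higher without overlap. Of 69 cytosolic ribosomal protein genes 0 were called by limma and 19 had an unadjusted p under 0.05, 65 had a lower mean and 14 were lower without overlap, with a median of -0.23. RPL17 differed by -0.99 ± 0.20 there, and RPL27A was the highest at 0.54 ± 0.15, with its sign turned with a filter at the upper quartile. Without control replicate 3, 1546 of all 16748 genes were called. The counts in that fit were 5 for p53 targets, 11 for ATF4 and unfolded protein response genes, 8 for matrix genes and 14 for ribosomal protein genes. They were 0 for all 4 lists without control replicate 1 and without RBFOX2 hairpin replicate 3, and matrix genes had 3 without RBFOX2 hairpin replicate 2 and 1 without any other array.

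Cell cycle lists held no called gene by limma. Beside 13.6% of all genes, of 50 S phase and DNA replication genes 6 had an unadjusted p under 0.05, led by the polymerase subunit POLE2 (0.77 ± 0.17), and of 38 G2 and mitosis genes 6 did so, led by the ubiquitin-conjugating enzyme UBE2C (-1.07 ± 0.21). UBE2C was at 11.34, 11.38 and 10.65 on the control arrays and at 9.63, 10.48 and 10.06 on the RBFOX2 hairpin arrays. Cholesterol synthesis (22 genes), heat shock (21 genes) and interferon response (29 genes) had 0 called by limma, with 4, 3 and 5 at an unadjusted p under 0.05. HMGCS1, which makes the precursor of mevalonate, was at 9.89, 9.65 and 8.58 against 8.41, 8.22 and 8.51, where control replicate 3 lay beside the RBFOX2 hairpin arrays (-1.0 ± 0.25, adjusted p = 0.124 by limma). For these lists, and for splicing regulators, ribosomal and p53 genes, the medians lay between -0.33 and 0.10 whichever array of the 2 groups was left out, beside a median of 0.03 over all genes. The counts called without control replicate 3 were 5 for S phase, 5 for G2 and mitosis, 3 for cholesterol synthesis, 2 for heat shock and 3 for interferon genes. They are to be read beside the 1546 of all 16748 genes called in that fit.

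**Figure D4:**
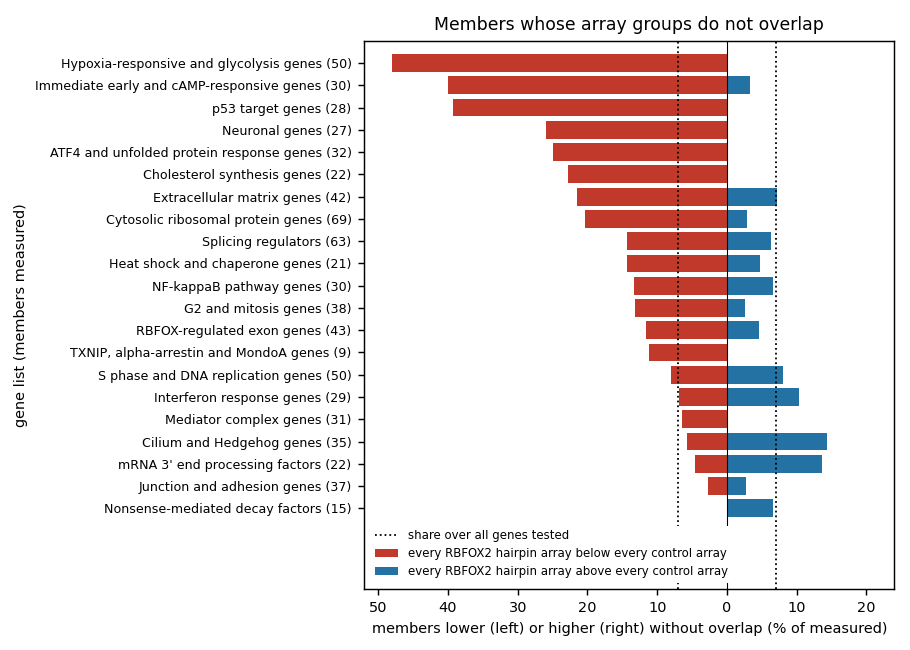
Share of the measured members of each gene list (%) whose RBFOX2 hairpin arrays were all below (red, to the left) or all above (blue, to the right) all control arrays, with dotted lines at the share over all genes, 7.05% and 7.07%. Hypoxia-responsive and glycolysis genes have 24 of 50 members on the left and 0 on the right. The lists were chosen with earlier results of these data known.

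Markers of the line and of other cell types were read to check the label. Of 14 HEK293 markers, RBFOX2 among them, 9 were above 8.73, the median over all genes on the control arrays, as were 1 of 11 fibroblast, 1 of 8 endothelial, 2 of 6 blood cell, 3 of 7 keratinocyte and 3 of 7 mature neuron markers. None of the markers of any of the 6 lists was called by limma. Of the HEK293 markers 4 had an unadjusted p under 0.05, and 4 were lower and 0 higher without overlap. RBFOX2, the target of the hairpin, is in both counts of 4. Over all genes 13.6% had such a p, and 7.05% were lower and 7.07% higher without overlap. The summed signal of the HEK293 markers on a linear scale, RBFOX2 included, was 14100 to 15778 on the control arrays and 12514 to 12830 on the RBFOX2 hairpin arrays, with no overlap. That of the fibroblast markers was 2853 to 3022 on the control arrays and 3031 to 3263 on the RBFOX2 hairpin arrays, and the sums of the other lists overlapped. The part of either in the gene changes above was not tested.

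The array was made to read exons, and an exon signal is what remains of a probe set's log2 value once the gene level of that array is subtracted. Of 257548 exon probe sets in 15035 genes 0 passed limma at an adjusted p under 0.05 (smallest 0.254), while 20306 (7.88%) had an unadjusted p under 0.05. An unadjusted p under 0.001 was reached by 631 (0.245%), of which 412 were lower and 219 higher. Without control replicate 3 the same test called 823 exons in 630 genes, 534 lower and 289 higher. Without any other single array it called 0. Control replicate 3 was picked out here for its nearness to the RBFOX2 hairpin arrays, so passing without it is no independent support. With every array in, limma's diffSplice, which takes 1 variance per gene from all its probe sets, called 919 exons, 288 higher and 631 lower. It treats the probe sets of a gene as independent although they share the same arrays, so its p-values may be too small. The probe set nearest to the threshold was 2704289 of GOLIM4, a Golgi membrane protein. Its exon signal was -0.89, -0.83 and -0.56 on the control arrays but -2.91, -2.45 and -2.93 on the RBFOX2 hairpin arrays, and -1.56, -1.93 and -2.15 on the arrays labelled CPSF3 hairpin. The 3 groups did not overlap, and the shift was -2.0 ± 0.19, the largest downward one among the 631, in a gene whose own level differed by 0.26. It was the 1 exon called with a mean in place of the median as gene level (adjusted p = 0.0331, limma), and it passed in diffSplice (adjusted p = 1.44e-07) and without control replicate 3 (-1.90, adjusted p = 0.0206 by limma).

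In several of the other large shifts 1 control stood apart. Probe set 2553594 of RTN4, a reticulon of the endoplasmic reticulum, was at -0.44, -0.33 and -1.72 on the control arrays and at -3.34, -2.12 and -2.71 on the RBFOX2 hairpin arrays (-1.90 ± 0.38). Probe set 2711691 of ATP13A3, a transport ATPase, was at -1.06, -0.97 and -1.95 against -2.87, -2.80 and -3.10. Upward, probe set 3913529 of DIDO1 was at -1.82, -2.24 and -0.41 against 0.63, -0.05 and 0.78 (1.94 ± 0.40). Probe set 3697145 of COG4, a subunit of a Golgi tethering complex, was at -3.53, -4.23 and -3.09 against -2.02, -2.04 and -1.13 (1.88 ± 0.31). In all 4 of these control replicate 3 was the control nearest to the RBFOX2 hairpin arrays. ADAM9, INTS10 and MTBP among the falls, and BCOR, MAP3K20, RBL1 and AUTS2 among the rises, made up the largest shifts each way, of 1.52 to 1.71 in size. None of these 7 passed the test over all exons with every array in, all of them passed in diffSplice, and all but MAP3K20 passed without control replicate 3. RTN4, ATP13A3, DIDO1 and COG4 passed in both of these settings too.

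Exons of genes known for RBFOX regulation were read next, since they bear on the function of the targeted protein. In 43 such genes 1418 exon probe sets were measured, and 0 were called by limma on exon signals. An unadjusted p under 0.05 was reached by 127 of them (8.96%), and 1 under 0.001 by 7 (0.494%), beside 7.88% and 0.245% of all exons. Without overlap 5.22% were lower and 6.28% higher, beside 5.65% and 5.24%. At gene level 0 of the 43 genes were called by limma, and 6 had an unadjusted p under 0.05, beside 13.6% of all genes. Without control replicate 3, 4 of the 43 were called, beside 1546 of all 16748 genes.

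Fibronectin FN1, whose cell attachment exons are a classic case of regulated splicing, had the smallest p. Its probe set 2598321 was at -0.05, 0.02 and 0.02 on the control arrays, at -1.06, -0.99 and -1.27 on the RBFOX2 hairpin arrays, and at -0.93, -0.91 and -0.53 on the arrays labelled CPSF3 hairpin. The shift was -1.10 ± 0.14 (adjusted p = 0.405, limma), and the controls were tight. Without control replicate 3 it was -1.09 and passed (adjusted p = 0.0404, limma), but no exon passed with any other array left out. Probe set 2395913 of CLSTN1, a cadherin family protein of vesicle transport, was at -0.32, -0.28 and -0.17 on the control arrays and at -1.02, -1.11 and -1.18 on the RBFOX2 hairpin arrays. The arrays labelled CPSF3 hairpin were at 0.18, -0.28 and -0.21 and overlapped the controls. The shift was -0.85 ± 0.14, and its difference from those arrays, -1.0, had an adjusted p = 0.70 over all exons by limma.

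EPB41, a protein of the membrane skeleton, is a known case of RBFOX-dependent exon inclusion. Its probe set 2327732 was at -0.80, -0.80 and -1.11 against -1.69, -1.64 and -1.95 (-0.86 ± 0.14), and at -2.04, -1.99 and -2.23 on the arrays labelled CPSF3 hairpin. Probe set 2652718 of ECT2, a guanine nucleotide exchange factor of cytokinesis, was at -0.25, -0.34 and -0.60 against -2.24, -1.29 and -1.87 (-1.41 ± 0.22). Probe set 2964806 of the kinase MAP3K7 was at -0.23, -0.49 and -0.76 against -1.58, -1.38 and -1.29 (-0.93 ± 0.16). In these 3 the arrays labelled CPSF3 hairpin lay below all controls as well. The focal adhesion kinase PTK2 (3156376, -0.78 ± 0.16) and cortactin CTTN (3338579, -0.78 ± 0.17) had further lower exons, and the cytolinker DST had the 1 higher exon among these 8, at -0.88, -0.83 and -0.37 against 0.16, -0.09 and 0.14 (2958328, 0.76 ± 0.16). Without control replicate 3 the exons in FN1, EPB41, MAP3K7 and DST passed the test, while those in CLSTN1, ECT2, PTK2 and CTTN did not. These 4 were all that passed of the 1418 exon probe sets in the list, beside 823 of 257548 over all genes. In diffSplice, with every array in, FN1 (adjusted p = 1.44e-05), ECT2 (0.00219), CLSTN1 (0.0171), MAP3K7 (0.0208) and EPB41 (0.0241) passed, and PTK2, DST and CTTN did not. The exon read by each probe set was not given in the sources used here, so none was matched to a documented RBFOX exon.

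**Figure D5:**
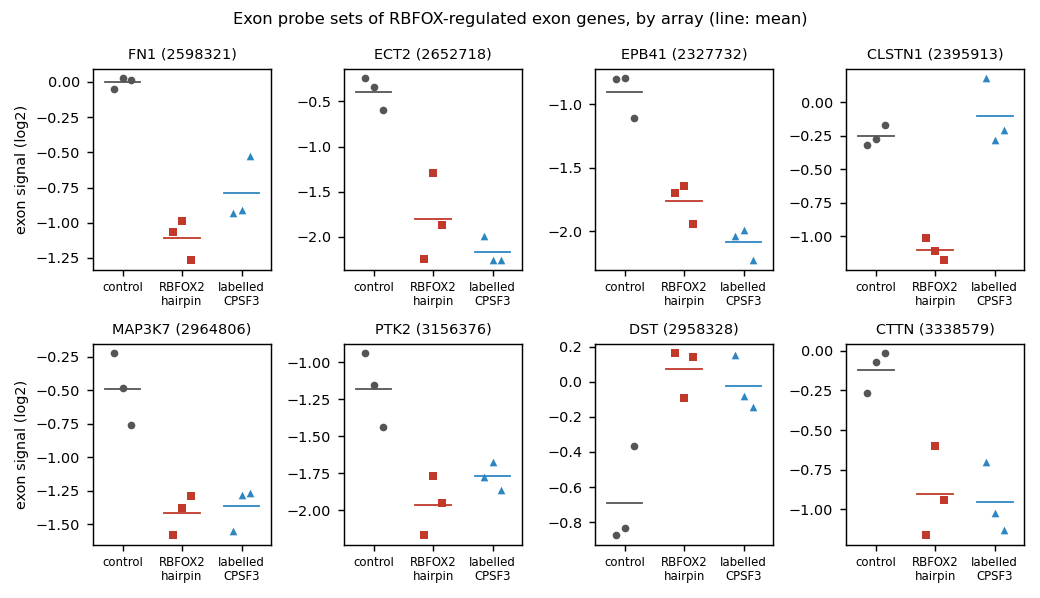
Exon signal (log2, probe set minus gene level) of 8 probe sets in genes known for RBFOX-regulated exons, on 3 arrays each of control (grey circles), RBFOX2 hairpin (red squares) and arrays labelled CPSF3 hairpin (blue triangles), with a line at each mean and a separate scale per panel. The 8 were picked for the smallest p between RBFOX2 hairpin and control arrays, a choice that favours the lack of overlap between them in every panel. Only in CLSTN1 do the arrays labelled CPSF3 hairpin overlap the controls.

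A single probe set outside CGA was called on its own signal. Probe set 4000708 of AP1S2, a subunit of the clathrin adaptor AP-1, was at 10.50, 10.41 and 10.43 on the control arrays, at 8.91, 8.91 and 9.07 on the RBFOX2 hairpin arrays, and at 9.94, 10.04 and 9.91 on the arrays labelled CPSF3 hairpin. The difference from control was -1.48 ± 0.13, and the arrays labelled CPSF3 hairpin lay between the 2 groups. Of the 9 AP1S2 probe sets measured, 4000709 (-1.06 ± 0.18) and 4000715 (-0.45 ± 0.15) were also lower without overlap. The other 6 overlapped, such as 4000739, which was at 12.64, 12.49 and 12.67 against 12.86, 12.84 and 12.41. The fall was thus measured on a part of the probe sets of the gene.

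The genes whose level followed that of RBFOX2 most closely over the 9 arrays were PIGY (Pearson's r = 0.961), SGTB (0.954), CHD3 (0.943), DYNLL2 (0.943) and ZMAT3 (0.938). The arrays share their groups and controls, and the correlations are given as a description. None of the 5 was called, and their differences from control ran from -0.26 ± 0.10 in CHD3, a chromatin remodeller, to -0.71 ± 0.13 in DYNLL2, a dynein light chain.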

How the data were processed

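Affymetrix Human Exon 1.0 ST arrays measured total RNA of 9 samples. The authors deposited log2 signals per probe set, made with Affymetrix Power Tools and RMA and mapped on hg18, per the submitters' processing notes; their versions were not given in the sources used here. Since RMA puts arrays on a common distribution, a shift of all genes would not be seen. Of 1384231 probe sets 354600 carry 1 gene symbol (14898 several, 1014733 none); of 19497 symbols 16426 were current in RefSeq (GRCh38.p14), 2950 were updated and 121 kept. Probe sets were kept at a mean of at least 6.97 (692116, of them 266506 with 1 symbol). A gene level is the median of at least 3 kept probe sets, and an exon signal is a probe set minus its gene level in genes with at least 5. limma 3.58.1 in R 4.3.3 (lmFit and eBayes, 3 groups, no block, two-sided, Benjamini-Hochberg at 0.05) was run over all features and tested on simulated data.

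Called means an adjusted p under 0.05. Named genes were the RBFOX family, all genes called, all called list members or up to 2 with the smallest p each way, the 6 largest exon shifts each way at p under 0.001 without overlap, and the 8 exons of smallest p in the RBFOX list; others were named after their values were seen. Members and lists were chosen with earlier results of these data known. Other settings were no filter, an upper quartile filter, quantile normalisation, centring, arrays left out, compared groups only, a replicate block, a variance trend, array weights, a mean gene level, a minimum change and diffSplice.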

Additional observations from a re-analysis of the deposited data

Results flagged for a closer look

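Among the 29 genes called against control, 6 also differed between the RBFOX2 hairpin arrays and the arrays labelled CPSF3 hairpin in a direct limma test over 16748 genes. CGA was lower on the RBFOX2 hairpin arrays by 1.39 on the log2 scale (difference -1.39, adjusted p = 0.000442), as were NKIRAS2 (-1.19, adjusted p = 0.000916) and CCND2 (-0.74, adjusted p = 0.026). TNMD was higher there (1.08, adjusted p = 0.00148), as was LOC151760 (0.85, adjusted p = 0.00257). DDIT4 was higher on the RBFOX2 hairpin arrays than on the arrays labelled CPSF3 hairpin (0.92, adjusted p = 0.00257), and lower than control on both. In all 6 genes the 3 arrays of one hairpin did not overlap the 3 of the other.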

How the results depend on the processing

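The direction of all 29 called genes was kept in each other setting that measured them, 18 for 25 genes and 17 for TNMD, LOC151760, ATP6V1G2 and CLTRN, which lack a level with the upper quartile filter (minimum change and diffSplice apart). The calls were not kept: CGA and NKIRAS2 were called in all 18, and 15 genes lost their call in at least 9 settings. Genes called numbered 29 (5 higher, 24 lower), but 7 without a filter, 5 with the compared groups only, 44 with the mean as gene level, 1 with a minimum change of 0.5, 1513 with array weights (953 higher, 560 lower) and 2 to 1546 with single arrays left out. Exons called numbered 0, but 1 with the mean, 919 by diffSplice and 0 to 823 with arrays left out. Single probe sets called numbered 3, but 0 without a filter or with the compared groups only, 39 with the upper quartile filter (8.36), 7 after quantile normalisation, 68 with trended variances and robust fitting, 1460 with array weights and 0 to 11033 with arrays left out. Genes that differed between the hairpins numbered 67 (44 higher, 23 lower), but 18 without a filter, 601 with array weights, 140 with the mean and 14 to 145 with arrays left out; a fit of the compared groups only could not be run for this difference. RBFOX2 passed the threshold at -0.67 with the upper quartile filter, -0.69 with array weights and -0.56 with the mean, and lay between -0.66 and -0.52 with arrays left out. Replicate numbers are shared by the groups. Same-numbered control and RBFOX2 hairpin arrays did not deviate together from their group means (correlations of deviations -0.08, -0.04 and -0.02). The arrays labelled CPSF3 hairpin were not checked in this way, so whether the numbers pair samples across the groups was not tested. With a replicate block 137 genes (68 higher, 69 lower), 0 single probe sets and 42 genes between the hairpins were called, and RBFOX2 passed at -0.58 (adjusted p = 0.0451, limma). No result changed direction with a call. The cause of these shifts was not tested, and 6 of 91 named genes, none of them called, changed sign in some setting (RPL27A, RPLP2, CHGA, SIK1, CLP1 and RBFOX1).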
